A study of Mus musculus with 2 samples.

Results

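Slits and netrins are secreted guidance proteins, and Robo, Dcc, Neo1 and Unc5 are the families of membrane receptors that read them. Here 10 of these genes were followed in J-RGCs: the ligands Slit1 and Slit2, and the receptors Robo1, Robo2, Robo3, Dcc, Neo1, Unc5a, Unc5c and Unc5d. They were taken by symbol from the 24015 genes listed for each library. J-RGCs are a type of retinal ganglion cell, the output neuron of the retina, marked by the adhesion molecule gene Jam2. The samples were 2 libraries, A and B, from mouse retina at postnatal day 6, and both belong to 1 group with no other cell type, age or treatment. Each library pooled 5 to 6 animals of a different litter. The cells were marked by green fluorescent protein from a transgenic line described as specific to the type, and were enriched on magnetic beads and by flow cytometry. The labels do not state the genetic background of the animals or what drives the transgene.

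When a Slit binds a Robo receptor, the growth cone of an axon is usually repelled. Netrin-1 attracts axons through Dcc and repels them through Unc5 receptors, alone or together with Dcc. In the embryonic mouse retina, Slits and Robo2 help to keep ganglion cell axons in the optic fibre layer and on their path at the optic chiasm, and netrin-1 at the optic disc guides axons that carry Dcc into the optic nerve.

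Depth was 7916204 gene counts in A and 13744313 in B, and values are given as CPM, counts scaled to a library total of 1000000. Where a gene had no read, 3 counts were taken as its limit, which is 0.379 CPM for library A and 0.218 CPM for library B and covers counting error only. The labelled cell type was checked first. All 8 ganglion cell markers stood above 100 CPM in both libraries, with a median of 451 CPM in library A and 853 CPM in library B. Jam2 stood at 2344 CPM in A and 1203 CPM in B, and the T-box factor gene Tbr1 at 60.9 and 91.2 CPM. Genes of other cells were also read. Of the microglia genes 4 of 5 were detected, with a summed level of 265 CPM in library A and 326 CPM in library B, and of the Müller glia genes 4 of 5, with 438 and 405 CPM. Of the amacrine genes 4 of 7 were detected (126 and 108 CPM summed), of the bipolar genes 2 of 6 (231 and 104 CPM), of the rod and cone genes 4 of 6 (28.8 and 24.7 CPM) and of the horizontal cell genes 3 of 4 (14.5 and 30.5 CPM). The endothelial and mural genes had 3 of 5 detected (396 and 104 CPM), and the astrocyte genes 0 of 4 (5.81 and 1.82 CPM). The more abundant of these genes included Gad2 (58.4 and 56.8 CPM) and Tfap2b (42.2 and 30.9 CPM) of amacrine cells. For bipolar cells they included Prkca (131 and 95.5 CPM) and Grm6 (96.4 and 0.582 CPM). For mural cells they included Rgs5 (342 and 82.4 CPM) and Pdgfrb (51.9 and 10.3 CPM). For Müller glia they included Dkk3 (317 and 223 CPM) and Glul (87.0 and 129 CPM), and for microglia P2ry12 (85.4 and 85.3 CPM). Onecut1 of the horizontal cell list was low, at 2.40 and 13.2 CPM. Dkk3 alone gave 317 and 223 CPM of the Müller glia sums. Other markers of the same lists were at or near 0. They included Chat of amacrine cells (0 and 0.0728 CPM), Pcp2 of bipolar cells (0 and 0.0728 CPM) and Lhx1 of horizontal cells (0 and 0 CPM). Gfap of astrocytes (0 and 1.09 CPM), Cldn5 of endothelium (0 and 0.0728 CPM) and Rlbp1 of Müller glia (0 and 1.60 CPM) were also among them. Aqp4 of astrocytes was read in library A only, at 4.93 CPM against 0 CPM in library B. Slc1a3 of Müller glia (11.1 and 3.06 CPM) and Aif1 of microglia (0.379 and 3.86 CPM) were low. What part these cells have in the levels below was not tested. In such pooled RNA, fewer cells that use a gene and less RNA per cell cannot be told apart.

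Of the 10 genes 9 were detected, meaning at least 1 CPM in both libraries, against 46.8% of all genes listed. Robo2, Neo1, Dcc, Unc5c and Unc5d stood above 100 CPM in both libraries, a level reached by 6.53% of all genes. Unc5d passed it narrowly, at 100.6 CPM in B. Robo3 was the gene without a single read, as were 29.3% of all genes. Ratios and the order of different genes are given below per length, as CPM per kilobase of summed annotated exon, since CPM alone favours long transcripts; the length of the longest transcript is given where it changes a result.

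**Figure D1:**
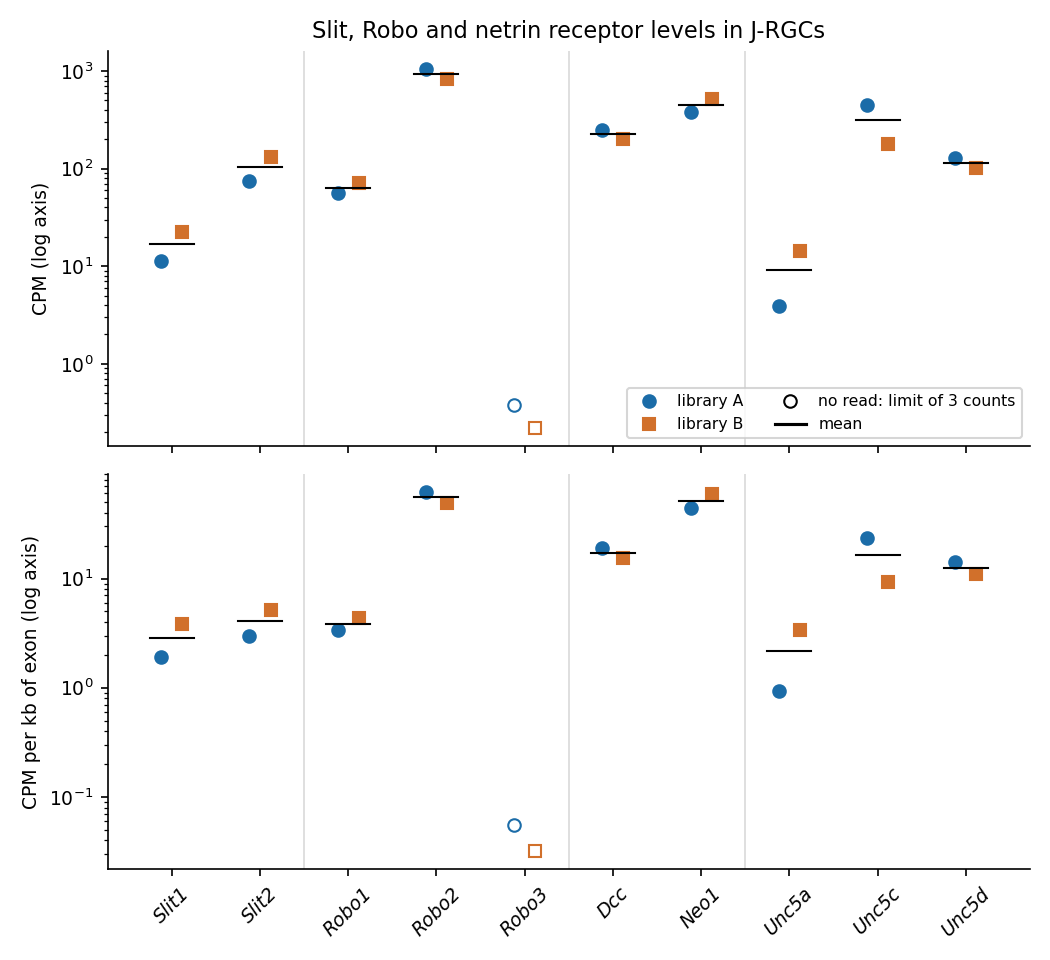
Levels of the 10 genes in library A (circles) and library B (squares), in CPM (top) and in CPM per kb of exon (bottom), on log axes, with the mean as a line. Open symbols are the limit of 3 counts for Robo3, which had no read. By mean, Robo2 and Neo1 lie highest in both panels, although in library A Unc5c lies above Neo1 in CPM. Robo3 is the only gene at the limit.

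Slit2 took more reads than Slit1 but is also the longer gene. It stood at 75.04 CPM in A and 131 CPM in B. Slit1 stood at 11.2 CPM in A and 22.6 CPM in B. Both ligands were lower in A than in B. Per length the difference between them was small: Slit2 had 2.95 and 5.17 CPM per kb in A and B, Slit1 1.90 and 3.82, so their ranges overlapped. The ratio of Slit1 to Slit2 per length was 0.690, with a 95% interval of 0.267 to 1.79. That interval, like the others below, comes from counting error and the spread between libraries that edgeR estimates for genes of like abundance. The result turns on the length used. The summed exons of Slit2 span 25433 bases, which takes in transcripts that keep introns, whereas its longest transcript has 9960 bases. With the longest transcript the log2 ratio of Slit1 to Slit2 was -1.83, with an interval of -3.20 to -0.45, which leaves Slit1 below Slit2.

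An intron of Slit2 holds the microRNA gene Mir218-1, and an intron of Slit3 holds Mir218-2, and both give the same mature miR-218-5p. Robo1 and Robo2 are known targets of this microRNA, so its sequence is shown here with the letters in the receptor genes that could pair with it. The mature sequence is from RefSeq on GRCm38.p6, chr5:48223966-48223986 on the plus strand, with its seed (bases 2 to 8) in capitals.
miR-218-5p: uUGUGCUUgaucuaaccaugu
The complement of the seed, AAGCACA, was looked for on the transcribed strand in the longest 3′ UTR among the basic protein-coding transcripts of each gene in GENCODE M21 (GRCm38). It was found at 1 place in Robo1 and at 2 places in Robo2, shown 5′ to 3′ with the match in capitals. The Robo1 match lies at chr16:73045348-73045354 on the plus strand, and those in Robo2 at chr16:73895359-73895365 and chr16:73893033-73893039 on the minus strand.
Robo1: ttttggttttaaAAGCACAatcactaaact
Robo2, first match: ttatttggtgatAAGCACAaatctctactc
Robo2, next match: cacggcagacccAAGCACAgcttctttcag
Slit2 itself held 2 matches, and Neo1 and Robo3 1 each, while Slit1, Dcc, Unc5a, Unc5c and Unc5d held none in this UTR. Longer UTRs hold the 7 letters more often. Of all 20996 genes with a 3′ UTR 13.7% had a match, and among genes whose UTR length was within 10% of the member's it was 18.6% for Robo1, 38.6% for Robo2, 33.9% for Slit2, 22.3% for Neo1 and 3.51% for Robo3. For the members without a match this share was 44.9% for Dcc, 50.6% for Unc5c, 49.1% for Unc5d, 10.9% for Slit1 and 9.41% for Unc5a. The mature microRNA was not measured here, and both precursor genes are listed at 0 in both libraries.

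Robo2 had the most reads of the 10 genes, at 1058 CPM in A and 831 CPM in B. It ranked 125 among all genes listed by mean CPM, and 510 by mean CPM per kb among the 23639 genes with a length. Per length Robo2 was above Neo1 in A (62.3 and 44.2 CPM per kb) and below it in B (48.9 and 59.0). It is the main Slit receptor of mouse ganglion cells. Robo1, the other Slit receptor of the family, stood at 56.1 CPM in A and 71.5 CPM in B. The libraries did not overlap between these receptors. Per length Robo2 exceeded Robo1 14.4-fold (95% interval 5.67 to 36.5). The fold was 18.3 in A and 11.3 in B. Robo2 made up 94.8% of the Robo level per length in A and 91.9% in B. Robo1 and Robo2 are direct neighbours among the protein-coding genes of chromosome 16 in RefSeq.

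Robo3, which in mouse spinal commissural axons modulates the response to Slits at the midline, had 0 counts in A and 0 counts in B. Its exons overlap no exon of another gene annotated in GENCODE M21. Against the limit of 3 counts per library, Robo2 was at least 1125-fold higher per length in A and at least 1535-fold in B. Robo1 was at least 61.4-fold higher than Robo3 in A and at least 136-fold in B. Its neighbour on chromosome 9, the endothelial receptor gene Robo4, was near the limit too, at 0 CPM in A and 0.655 CPM in B.

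Neo1 (neogenin), a relative of Dcc that binds netrins and repulsive guidance molecules, stood at 385 CPM in A and 514 CPM in B. Dcc, the netrin receptor for attraction, stood at 250.0 CPM in A and 202 CPM in B. Both genes were thus well read in each library. Per length Neo1 exceeded Dcc 2.99-fold (95% interval 1.16 to 7.73). The fold was 2.33 in A and 3.84 in B. From library A alone the log2 ratio was 1.22 (-0.72 to 3.16), which ends the call. Without any length correction the log2 ratio was 0.98 (-0.39 to 2.35).

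Among the Unc5 receptors, which mediate repulsion by netrin, Unc5c and Unc5d were the abundant members. Unc5c stood at 452 CPM in A and 180 CPM in B. Unc5d, which also binds the cell-surface protein Flrt2, stood at 130 CPM in A and 101 CPM in B. Unc5a stood at 3.92 CPM in A and 14.2 CPM in B. With summed exons the order of Unc5c and Unc5d changed with the library: Unc5c over Unc5d per length was 1.68 in A and 0.860 in B, and 1.201 over both with a 95% interval of 0.484 to 2.98. The length decides this order. With the longest transcripts Unc5c was above Unc5d in both libraries, 3.33-fold in A and 1.71-fold in B, and the log2 ratio over both was 1.25 (-0.06 to 2.57), while without length correction it was 1.32 (0.0053 to 2.63), just clear of equality. Both exceeded Unc5a, by 8.33-fold for Unc5c (interval 2.85 to 24.4) and 6.93-fold for Unc5d (interval 2.47 to 19.5). With the longest transcripts the fold of Unc5c over Unc5a was 15.8. These folds were unequal between the libraries. Unc5c over Unc5a was 25.1 in A and 2.76 in B, and Unc5d over Unc5a was 14.98 in A and 3.21 in B. From library B alone neither interval excluded equality (log2 ratios of 1.46, -0.70 to 3.63, and of 1.68, -0.40 to 3.76).

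**Figure D2:**
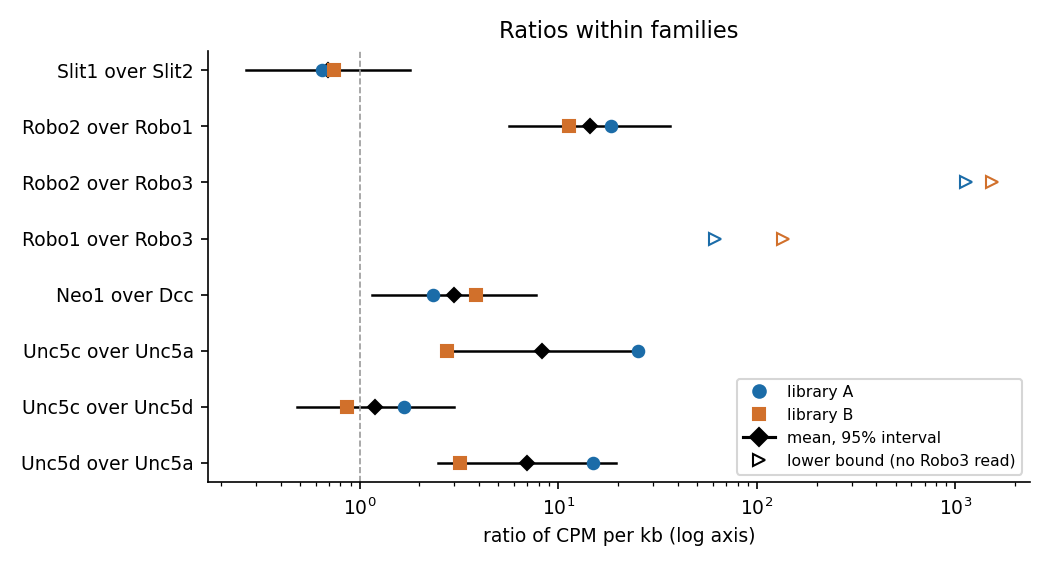
Ratio of CPM per kb for the 8 pairs within families on a log axis, with the mean over libraries and its 95% interval (diamonds and lines) and each library's own ratio (circles for A, squares for B). Triangles are lower bounds against the limit of 3 counts for Robo3. Robo2 over Robo1 lies at 14.4 and is clear of 1, while Slit1 over Slit2 and Unc5c over Unc5d span 1.

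Of the 8 pairs within families 6 could be given an interval, and in 4 of these it excluded equality. In the order of all 10 genes by CPM per kb, Robo2 (55.6 ± 9.43, SD, n = 2) and Neo1 (51.6 ± 10.5) came first, and their ratio of 1.08 had an interval that held equality, 0.399 to 2.93. Dcc (17.2 ± 2.55), Unc5c (16.5 ± 10.1) and Unc5d (12.5 ± 2.23) followed, and again no neighbours among them were separated with this length. Slit2 (4.06 ± 1.57), Robo1 (3.86 ± 0.661), Slit1 (2.86 ± 1.36) and Unc5a (2.17 ± 1.74) formed the low end above Robo3, and their neighbours were not separated either. The intervals excluded equality at 2 steps of this order. The step from Neo1 to Dcc is given above, and Unc5d exceeded Slit2 3.17-fold, with an interval of 1.35 to 7.47. The order depends on the length. With the longest transcript the log2 ratio of Robo2 to Neo1 was 0.86 (-0.58 to 2.30) in place of 0.11, and that of Dcc to Unc5c was -0.44 (-1.79 to 0.92) in place of 0.20, and neither interval excluded equality. With the longest transcript as length, the log2 ratio of Unc5d to Slit2 was 0.31 (-0.92 to 1.55), which ends that call, and that of Robo1 to Slit1 was 1.57 (0.21 to 2.94). From library B alone Unc5d over Slit2 was 1.08 on the log2 scale (-0.67 to 2.82).

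The libraries of separate litters were compared gene by gene with an exact two-sided binomial test on their counts, a test of these libraries and not of any condition. It treats reads as independent, although the RNA was amplified and reads carry no molecular identifiers, so its p-values cover counting error only and are too small as a measure of the spread between litters. A gene was called at an adjusted p under 0.05 (Benjamini-Hochberg over 14107 genes) and at least 2-fold. Of the 9 members with reads 3 were called, against 44.5% of all genes tested and 30.6% of those with at least as many counts as Unc5a, the lowest of the 9. Unc5c was higher in A, 2.52-fold (452 and 180 CPM, adjusted exact p 1.7e-276), where 10.9% of all genes were called. Unc5a was higher in B, its A over B fold being 0.276 (3.92 and 14.2 CPM, adjusted exact p 1.1e-13), and so was Slit1 at 0.497 (11.2 and 22.6 CPM, adjusted exact p 2.7e-09), where 33.6% of all genes were called. The other 6 lay within 2-fold. On the log2 scale of A over B, Slit2 was at -0.81, Neo1 at -0.42, Robo1 at -0.35, Dcc at 0.30, Robo2 at 0.35 and Unc5d at 0.37. The median of all detected genes on that scale was -0.40, and TMM scaling adds 0.38 to every gene. With TMM scaling Slit1 stood at -0.63 and was no longer called, Neo1 stood at -0.03 and Robo1 at 0.03. Unc5c and Unc5a were called under TMM and under DESeq2 size factors as well.

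**Figure D3:**
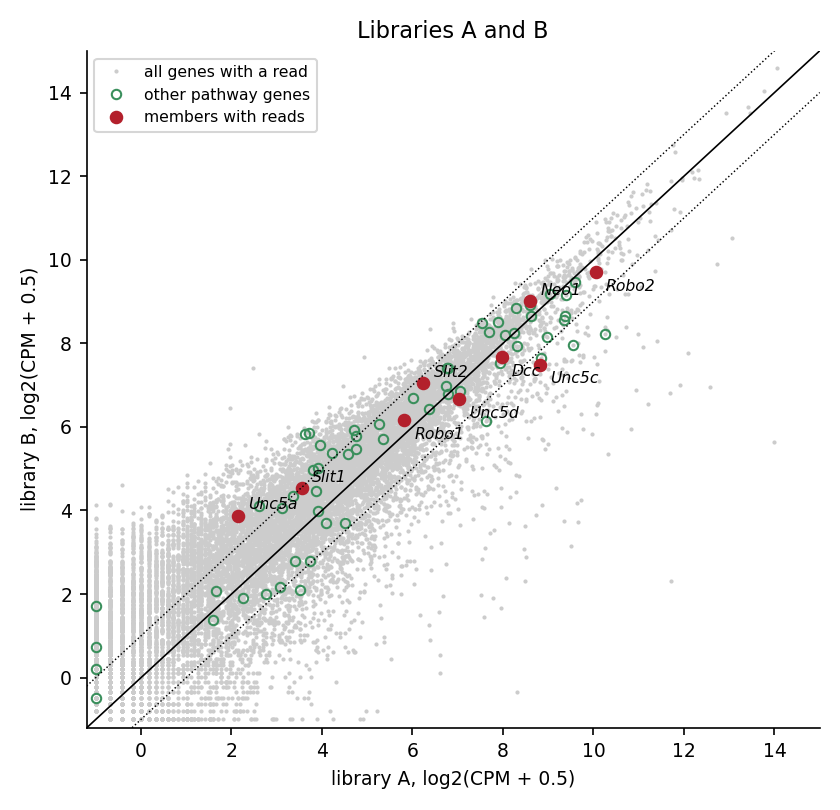
Level of every gene with a read in library A (x axis) and library B (y axis), as log2(CPM + 0.5). Red points are the 9 members with reads, green circles the other pathway genes, the solid line is equality and the dotted lines are 2-fold. Unc5c lies below the band, Unc5a above it and Slit1 on its edge.

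Other genes of the pathway, 58 in all, were read by role. Of these 54 were detected, against 46.8% of all genes. Among the 12 other ligands and ligand-like genes 9 were detected, with a median of 9.54 CPM in library A and 5.06 CPM in library B. The secreted netrins were low: Ntn1 (netrin-1) stood at 0 CPM in A and 2.76 CPM in B, and Ntn5 at 0 and 0.218 CPM. Slit3 stood at 0 CPM in A and 1.16 CPM in B. The highest of this role per length was Nell2, which in mouse is a ligand of Robo3, at 186 CPM in A and 357 CPM in B. Thus the ligand gene was well read in libraries where Robo3 had no read. Ntng1 (netrin-G1), which is tied to the membrane and does not bind Dcc, stood at 205 CPM in A and 309 CPM in B. Rgma, a repulsive ligand of Neo1, stood at 15.03 CPM in A and 47.1 CPM in B.

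Of the 13 other receptors and coreceptors 12 were detected, and 6 exceeded 100 CPM in each library. Flrt2, a surface partner of Unc5 receptors, was the highest per length but uneven, at 1217 CPM in A and 296 CPM in B. Lrrc4c, the partner of netrin-G1, stood at 243 CPM in A and 184 CPM in B, and Dscam, an adhesion molecule that also binds netrin-1, at 314 and 462 CPM. The remaining Unc5 gene measured here, Unc5b, stood at 7.96 CPM in A and 4.002 CPM in B, or 1.27 and 0.639 CPM per kb, against 23.6 and 9.38 for Unc5c and 14.1 and 10.9 for Unc5d.

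All 16 Robo effectors were detected, with a median of 32.8 CPM in library A and 59.2 CPM in library B. Srgap1 and Srgap3, GTPase-activating proteins that bind the Robo tail, stood at 668 CPM in A and 569 CPM in B and at 664 and 405 CPM. Enah, an actin regulator of the Ena/VASP family, stood at 774 CPM in A and 701 CPM in B. At the low end were the adaptor gene Nck1, at 5.56 CPM in A and 16.8 CPM in B, and Cables1, at 2.53 and 2.11 CPM. All 17 netrin receptor effectors were detected too, with a median of 132 CPM in library A and 125 CPM in library B. The kinase gene Pak1 stood at 650 CPM in A and 379 CPM in B, the GTPase gene Rac1 at 528 and 576 CPM, and the lipid transfer gene Pitpna, whose product binds Dcc, at 745 and 249 CPM. Src and Dock1 were the lowest of this role per length, at 8.21 CPM in A and 16.3 CPM in B and at 10.99 and 3.78 CPM. Between the libraries 17 of the 56 pathway genes tested were called, 5 higher in A and 12 higher in B, against 10.9% and 33.6% of all genes. Most effectors serve many receptors, and their levels do not show which receptor they work for.

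**Figure D4:**
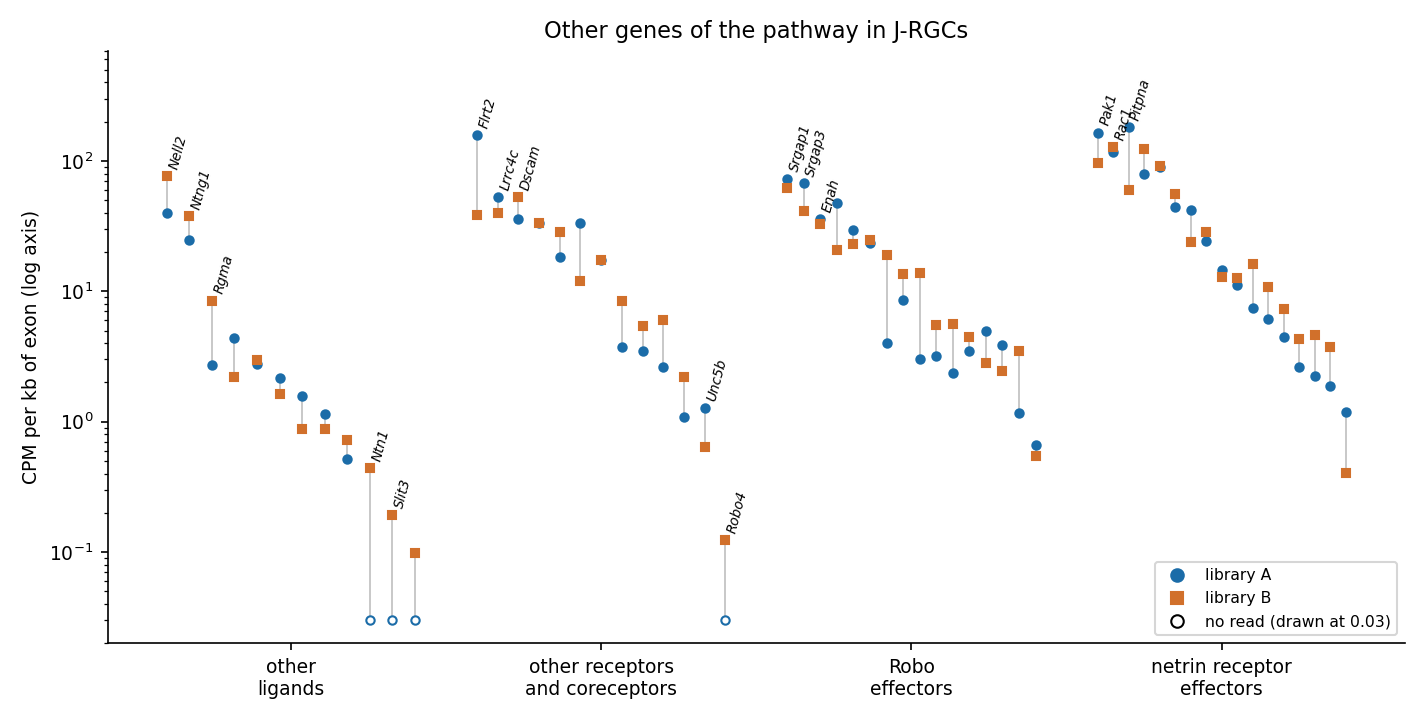
CPM per kb of exon (log axis) of the 58 other pathway genes by role, each ordered by mean, in library A (circles) and library B (squares) joined by a line. Open circles mark no read. Nell2 and Ntng1 lead the ligands, Ntn1, Slit3 and, lowest, Ntn5 (unlabelled) end them, and Robo4 ends the receptors.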

How the data were processed

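The authors deposited whole-number counts of reads for each gene symbol and library. The mm9 build, HTSeq 0.6.1, TopHat2 2.0.10 and Trimmomatic 0.32 are named, per the submitters' processing notes. The annotation, the settings and any use of strand are not stated there, and reads of overlapping genes cannot be told apart: Unc5a shares 34 exon bases with Hk3 and Unc5c 118 with an antisense gene. Summary lines were left out, and genes held 26.8% of listed reads in A and 30.9% in B. The ribosomal transcript Rn45s, with Gm20594 and Lars2, held 3.10% and 3.88% of gene counts.

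Counts were scaled to CPM and divided by summed exon lengths from GENCODE M21 (98.4% of symbols matched); the longest transcript was an alternative. The kit amplifies RNA and reads carry no molecular identifiers. With 1 group, edgeR 4.0.16 (R 4.3.3) had no contrast. A fit with an intercept alone, TMM factors and 11272 genes gave trended dispersions (common coefficient of variation 0.507). A ratio's 95% interval combined these with counting error, unadjusted over the pairs. DESeq2 1.42.0 gave other size factors. Python 3.11.15, scipy 1.17.1 and pandas 2.3.3 were used. The binomial test was tried on simulated counts without any spread between libraries beyond counting error. The ratio interval was tried on simulated counts whose spread was known in advance. Neither setting shows how the statistics behave when the spread is estimated from these libraries. The 10 genes, the pathway list and the markers were chosen with earlier results of these data known. Of each pathway role the 3 highest and 2 lowest genes per length are named, plus Slit3, Ntn1, Unc5b and Robo4, and markers are named as checks.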

Additional observations from a re-analysis of the deposited data

How the results depend on the processing

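The number of members detected, members above 100 CPM and pathway genes detected stayed within 1.5 times under every scaling and threshold tried and with either library left out. Members above 100 CPM numbered 5 in the main setting, 4 with TMM scaling or DESeq2 size factors and 6 from library B alone. With no minimum fold all 9 members with reads differed between the libraries, where 77.8% of all genes did. The count of within-family ratios apart from equality ranged from 2 to 3 when a library was left out, against 4 with both; it was 5 with the longest transcripts, 5 without length correction and 6 with counting error only. That of neighbours was 1 without either library, against 2. With counting error only, which leaves out the spread between libraries, 7 neighbours were separated. An interval from 1 library is wider by construction. Leaving out a library for the comparison of libraries was not run, since nothing is left to compare. No paired analysis was possible because there is 1 group. With both libraries and summed exons, the smallest ratio whose interval excluded equality was 2.99-fold; with the longest transcripts it was 2.77-fold, for Neo1 over Dcc, and without length correction 2.49-fold, for Unc5c over Unc5d.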
